A study of Mus musculus with 2 samples.

Results

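Among the cells sorted as splenic Tregs were a few barcodes with high counts of Mpo, Elane, Prtn3 and Ctsg, the early granule genes of granulocyte and monocyte progenitors. They were chosen by measured counts, as barcodes with at least 300 detected genes, at most 5% mitochondrial UMIs, at least 20 UMIs of those 4 genes together, and less than 5% of their UMIs from Camp, Ngp, Ltf, Lcn2, S100a8 and S100a9, the later granule genes and calgranulins of maturing neutrophils. A UMI (unique molecular identifier) stands for 1 captured transcript molecule and a barcode for 1 droplet. The rule took 31 of 8053 kept barcodes in the WT library and 74 of 13767 in the KO library, 105 of 21820 in all. The libraries listed 70 barcode sequences in common, and 0 of the 105 chosen barcodes were among them.

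The study profiled CD4+YFP+ cells from the spleens of C57BL/6J mice at 7 days of age by droplet single-cell RNA-seq. Both groups carried the Foxp3-Cre allele with its YFP reporter. The WT mice had intact Zfp335, and the KO mice (Zfp335fl/flFoxp3-Cre) had floxed Zfp335 deleted by a Cre that the Foxp3 locus drives, so deletion is directed to cells with a history of Foxp3 expression. There was 1 library per genotype, how many mice were pooled was not given in the sources used here, and no test between genotypes was possible, so that genotype and library cannot be told apart. The sort took viable (7AAD-) CD4+YFP+ cells.

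Mpo encodes myeloperoxidase, and Elane, Prtn3 and Ctsg encode the serine proteases neutrophil elastase, proteinase 3 and cathepsin G. Granulocyte-monocyte progenitors and promyelocytes make these enzymes and pack them into the azurophil granules, and their transcripts decline when the cells go on to make later granule proteins or become monocytes. In newborn mice the spleen is still a site of blood formation, and such progenitors are normal residents there. They do not express Foxp3 or T cell receptor genes.

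The genes for the rule's enzymes lie at 3 places in the genome (GRCm38.p6, RefSeq). Mpo lies at chr11:87793784-87804412 and Ctsg at chr14:56099885-56102574, and Prtn3 (chr10:79879667-79883174) and Elane (chr10:79886312-79888216) are neighbours with 3137 bases between them. The promoter windows of the 4 genes, 250 bases before to 50 after each transcription start as RefSeq gives it, are shown because the levels of the 4 transcripts went together across these barcodes. They lie at chr11:87793534-87793833 (Mpo, plus strand), chr10:79886062-79886361 (Elane, plus strand), chr10:79879417-79879716 (Prtn3, plus strand) and chr14:56102525-56102824 (Ctsg, minus strand). Capitals mark matches, on either strand, to GAGGAA (a form of the motif of PU.1, which the Spi1 gene encodes) and to TGTGGT (the RUNX core); no 2 matches overlap.
Mpo: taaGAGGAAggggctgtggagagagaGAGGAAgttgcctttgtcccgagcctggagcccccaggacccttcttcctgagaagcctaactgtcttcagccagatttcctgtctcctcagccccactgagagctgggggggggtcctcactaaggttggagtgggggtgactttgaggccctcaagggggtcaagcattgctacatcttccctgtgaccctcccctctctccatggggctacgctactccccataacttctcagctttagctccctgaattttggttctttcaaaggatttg
Elane: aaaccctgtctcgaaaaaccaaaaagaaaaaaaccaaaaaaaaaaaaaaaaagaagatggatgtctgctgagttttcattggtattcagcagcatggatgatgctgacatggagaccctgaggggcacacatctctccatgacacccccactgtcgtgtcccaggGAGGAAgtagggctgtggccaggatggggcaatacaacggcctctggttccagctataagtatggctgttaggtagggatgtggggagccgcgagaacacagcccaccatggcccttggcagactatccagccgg
Prtn3: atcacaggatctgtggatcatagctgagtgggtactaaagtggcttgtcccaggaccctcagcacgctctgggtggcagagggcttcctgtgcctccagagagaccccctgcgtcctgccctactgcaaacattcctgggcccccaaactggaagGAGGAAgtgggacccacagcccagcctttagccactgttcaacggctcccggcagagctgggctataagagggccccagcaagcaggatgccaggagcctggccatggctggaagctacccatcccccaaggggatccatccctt
Ctsg: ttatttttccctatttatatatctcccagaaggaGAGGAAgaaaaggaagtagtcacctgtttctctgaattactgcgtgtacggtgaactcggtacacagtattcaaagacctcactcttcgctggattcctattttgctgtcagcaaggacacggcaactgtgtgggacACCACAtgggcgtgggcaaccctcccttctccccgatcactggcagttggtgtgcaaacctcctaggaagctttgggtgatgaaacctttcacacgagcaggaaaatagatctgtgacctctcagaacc

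All 4 windows held GAGGAA or its complement, which 28.3% of 32851 RefSeq promoter windows held. The Mpo window had 2 matches, and the windows of the 3 proteases had 1 each, in Elane at 85 bases and in Prtn3 at 95 bases before the transcription start. The Ctsg window also had 1 match to TGTGGT, which 16.8% of all windows held. The C/EBP motif TTGCNNAA, in 10.8% of all windows, had no match in the 4 windows. These are letter matches in a short window and carry no measurement of binding.

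The chosen barcodes went against their label in part. They were divided by depth at 7000 UMIs, between the neighbouring barcodes of 6280 and 7873 UMIs. In the WT library 30 of 31 barcodes had more than 7000 UMIs (12564 to 49238, median 27884). In the KO library 44 of 74 did (7873 to 63316, median 26713), whereas 30 KO barcodes had 1591 to 6280 UMIs (median 3162), as did 1 WT barcode of 2507 UMIs. The line was drawn after seeing the data, and it is not the widest gap, since no barcode lay between 9075 and 12564 UMIs. T cell receptor and CD3 genes (Cd3d, Cd3e, Cd3g, Trac, Trbc1 and Trbc2) made up a median of 0.0325% of UMIs in the deep WT barcodes and 0.0375% in the deep KO barcodes. In the 30 shallow KO barcodes the median was 0.331% (0.112% to 0.812%), beside 0.596% in the 12856 KO T cell barcodes and 0.654% in the 7376 WT T cell barcodes. The shallow KO barcodes thus held T cell transcripts at a level between those of the deep barcodes and of T cells.

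**Figure D1:**
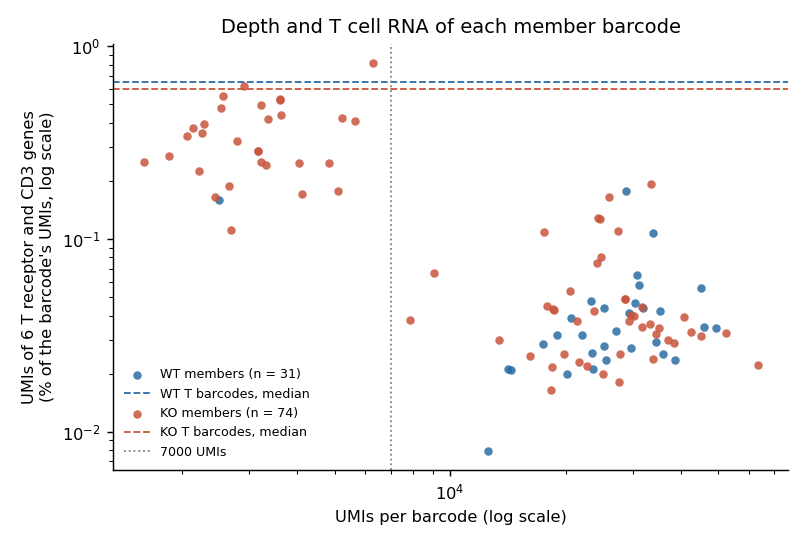
Each point is 1 chosen barcode, with its UMIs on the x axis (log scale) and the percent of its UMIs from 6 T receptor and CD3 genes on the y axis (log scale); dashed lines give the medians of T cell barcodes per library. Nearly all WT points sit right of 7000 UMIs at low T shares, whereas 30 of 74 KO points sit left of it with T shares of 0.112% to 0.812%.

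The shallow KO barcodes also held the enzymes that the rule used, which is a description. Summed over the 30 barcodes (98519 UMIs), the 4 enzymes reached 9501 CPM (UMIs divided by the set's total and scaled to 1e+06; 95% exact Poisson interval 8902 to 10129), against 11812 CPM in the deep KO barcodes and 71.0 CPM in KO T cell barcodes. Mpo alone stood at 3431 CPM (3075 to 3817), beside 3106 CPM in the deep set. The rule asked for at least 20 UMIs of the 4 enzymes whatever the depth. It therefore required a higher CPM of a shallow barcode than of a deep one. The enzyme levels of the shallow set were partly fixed in this way, so nearness to the deep level cannot be read from them. Ms4a3, a membrane protein gene of granulocyte-monocyte progenitors, was at 376 CPM in the shallow set and 353 CPM in the deep set, and Plac8 at 1441 and 1794 CPM. Of 25 listed early granule, regulator and monocyte genes with at least 100 UMIs in the deep set, 15 were at 0.5 times the deep level or less, 8 between that and the deep level, and 2 above it (median 0.441). Srgn (ratio 0.934), Ctss (1.05) and Irf8 (0.651, 0.393 to 1.02) were among those closer to the deep level. Lyz2 (lysozyme) stood at 112 CPM against 1839 CPM, a shallow to deep ratio of 0.0607 (0.0303 to 0.109), S100a8 at 91.4 against 1634 CPM, and Spi1 at 102 against 324 CPM, a ratio of 0.313 (0.149 to 0.582). In KO T cell barcodes Lyz2 was at 82.9 CPM and S100a8 at 216 CPM. Spi1 was at 7.29 CPM there, Ms4a3 at 2.18 CPM and Plac8 at 41.2 CPM, all below the shallow set. Haemoglobin and the other listed erythroid genes summed to 2944 CPM in the shallow set and 550 CPM in the deep set, beside 2830 CPM in KO T cell barcodes. The part that 2 cells in a droplet, free RNA or a distinct cell type had in these barcodes was not tested. For some of the values that the shallow barcodes turn or move, the value for barcodes of at least 7000 UMIs (deep barcodes) is given beside it. A value without a deep figure can also differ or turn in deep barcodes.

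Even among the deep barcodes a few held more T cell RNA. 2 of 30 WT and 6 of 44 KO deep barcodes had more than 0.1% of UMIs from the 6 T cell genes, with 0.177% and 0.191% as the highest values. Xist and Y-linked transcripts, which mark female and male cells, were seen together in 2 KO deep barcodes and in 0 WT deep barcodes, counting at least 5 Xist UMIs and any UMI of 4 Y-linked genes. 9 WT and 27 KO deep barcodes held Xist alone, and 17 WT and 13 KO held Y-linked transcripts alone, so that both libraries held cells of both sexes. The listed NK cell genes summed to 0 UMIs in WT and 1 in KO, the 6 megakaryocyte genes to 3 and 6 UMIs, and C1qa, C1qb and C1qc, the complement genes of spleen macrophages, to 1 UMI in all. B cell genes summed to 128 and 222 UMIs (151 and 169 CPM), against 344 and 153 CPM in T cell barcodes, and most of these UMIs were from Ighm (92 and 152). Mast cell and basophil genes were high in 2 WT barcodes, which are described after the subgroups. Of the erythroid genes other than haemoglobin, Alas2 had 0 WT and 2 KO UMIs and Klf1 had 1 and 0. Foxp3 had 3 UMIs in the WT and 5 in the KO barcodes, 3.55 and 3.81 CPM, against 38.8 and 43.5 CPM in T cell barcodes of the same libraries.

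Zfp335, the deleted gene, had 5 UMIs in the WT and 5 in the KO chosen barcodes. This was 5.91 and 3.81 CPM, a KO to WT ratio of 0.644 with an exact interval of 0.148 to 2.80, which covers both no difference and a several-fold one. In T cell barcodes Zfp335 was at 8.09 CPM in WT and 0.857 CPM in KO, so the labels held there.

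The counts close to the thresholds show how the rule divides the libraries. The nearest WT barcode below the line had 19 UMIs of the 4 enzymes and the nearest KO barcode 18, and in both libraries the lowest chosen barcode had 20. Among kept barcodes with a late granule share under 5%, those with 5 to 19 UMIs of the 4 enzymes numbered 16 in WT and 142 in KO. 13 of the 16 WT barcodes were deep (median 12578 UMIs), whereas 16 of the 142 KO barcodes were (median 2012 UMIs). The other threshold cut the opposite way. With at least 20 UMIs of the enzymes but a late granule share of 5% or more, there were 7 WT barcodes and 0 KO barcodes. The highest late share inside the rule was 3.22% in WT and 4.60% in KO, and the lowest outside was 6.59%.

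These 7 barcodes, with 45 to 1232 UMIs of the 4 enzymes and late shares of 6.59% to 26.1%, were 6.73% of the 104 WT neutrophil-lineage barcodes (Clopper-Pearson 95% interval 2.75% to 13.4%), defined by a late granule share of at least 5%. They held 2852 of the 2911 enzyme UMIs of that set. The 144 KO neutrophil-lineage barcodes held 31 such UMIs in all, and 0 of 144 allows a share of up to 2.53%. Elane in the neutrophil-lineage sets was accordingly 1065 CPM in WT and 4.33 CPM in KO.

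The interval of the difference between libraries in the share of chosen barcodes included 0. The share was 0.385% in WT (Clopper-Pearson 0.262% to 0.546%) and 0.538% in KO (0.422% to 0.674%), a KO minus WT difference of 0.153 percentage points with a Newcombe 95% interval of -0.0419 to 0.330. For deep barcodes alone it was 0.373% (30 of 8053) and 0.320% (44 of 13767), a difference of -0.0529 points (-0.231 to 0.103), with the direction turned. Shallow barcodes made up 0.0124% of WT and 0.218% of KO kept barcodes, a difference of 0.205 points (0.118 to 0.299). A share of sorted barcodes depends on the other cells that passed the sort, and these intervals cover counting error only.

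The 4 enzymes that defined the barcodes varied widely among them, which is a description since the rule used their counts. Mpo ran from 29.6 to 7714 CPM per WT barcode (median 1910) and from 0 to 12916 CPM per KO barcode (median 2538). Elane ran from 0 to 19104 CPM in WT (median 691) and from 0 to 20397 CPM in KO (median 935), and 6 WT and 16 KO barcodes had no Elane UMI. Elane was therefore present in most but not all of the barcodes in each library. Prtn3 had at least 1 UMI in all 105 barcodes, with medians of 3393 CPM in WT and 2858 CPM in KO. Ctsg had medians of 949 and 972 CPM, with 4 WT and 10 KO barcodes at 0. The WT and KO ranges overlapped for each enzyme, and the highest Mpo and Prtn3 values were in KO barcodes (Prtn3 up to 12142 CPM in WT and 14779 CPM in KO). In the deep barcodes the medians were lower in KO for all 4, for example 1224 against 1830 CPM for Mpo and 374 against 1072 CPM for Ctsg. For Elane they were 542 CPM in KO and 605 CPM in WT.

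**Figure D2:**
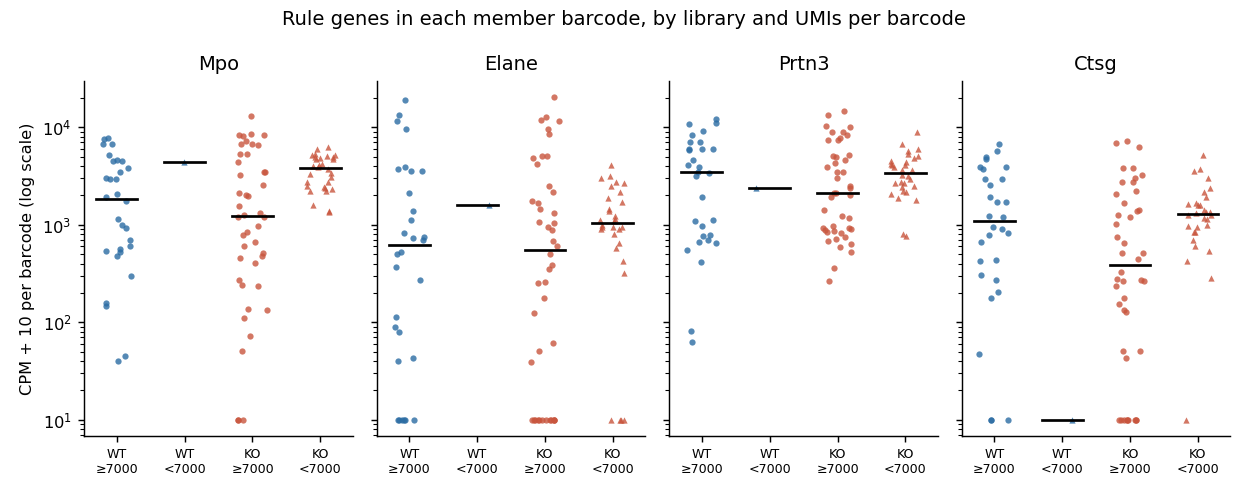
Each point is 1 chosen barcode and gives CPM + 10 (log scale) of the gene in the panel title; circles are barcodes of at least 7000 UMIs, triangles shallower ones, and black bars the medians. The deep barcodes of both libraries spread from 0 to 20397 CPM in Elane. The 30 shallow KO barcodes have a Mpo median of 3817 CPM. The rule's fixed minimum of enzyme UMIs required a higher enzyme CPM of these shallow barcodes than of deep ones.

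Summed over barcodes, the 4 enzymes together gave 11300 CPM in WT (9559 UMIs of 845890) and 11639 CPM in KO (15290 UMIs of 1313688). Mpo was at 2633 CPM in WT (2525 to 2744) and 3130 CPM in KO (3035 to 3227), a KO to WT ratio of 1.19. Ctsg was at 1769 and 1478 CPM, a ratio of 0.835. These intervals count molecules only, and the spread between barcodes is far wider than they are. In T cell barcodes Mpo stood at 8.19 CPM in WT and 23.7 CPM in KO, and in erythroid barcodes at 13.2 and 11.9 CPM. These comparison sets can include barcodes with 5 to 19 UMIs of the 4 enzymes. Such barcodes numbered 16 in WT and 142 in KO among kept barcodes with a late granule share under 5%. The values are therefore not a level of cells that make none of these enzymes.

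Across the 74 deep barcodes the enzymes went up and down together, given as a description, since the barcodes share 2 libraries and their total UMIs. Spearman's rho between CPM values was 0.881 for Mpo and Ctsg, 0.889 for Elane and Prtn3, the neighbouring genes, 0.767 for Mpo and Prtn3, and 0.670 for Mpo and Elane. Pearson's r for these pairs was 0.842, 0.829, 0.886 and 0.767. Elane was lower where Cd34, a surface marker of stem and progenitor cells, was higher (rho -0.401), and Mpo was lower where Lyz2 was higher (rho -0.553). By library, rho for Elane and Cd34 was -0.172 in WT and -0.509 in KO. For Mpo and Lyz2 it was -0.421 in WT and -0.618 in KO. Lyz2 went with Ly6c2, a surface antigen gene of monocytes and granulocytes (rho 0.673), and Ly6c2 with F13a1, the coagulation factor XIII subunit made by monocytes (rho 0.788). The rho between Ly6c2 and F13a1 was 0.783 in WT and 0.776 in KO.

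Leiden clustering of the 105 barcodes gave 5 subgroups, which are described by number. Subgroup 1 (12 WT and 23 KO barcodes) had the summed levels of a granule-making stage, with Elane at 5890 CPM, Mpo at 5145 CPM, Ms4a3 at 761 CPM and Cebpe, a transcription factor of granulocyte maturation, at 126 CPM. Its S100a8 level was 2589 CPM, but the median barcode had 68.4 CPM. 3 of the 35 barcodes, with late granule shares of 2.87% to 4.60%, held 3048 of the 3645 late granule UMIs, and S100a8 was at 605 CPM in the rest, whose late shares reached 0.641%. Summed Cd34 was at 130 CPM and Myb, a progenitor transcription factor, at 169 CPM. Elane had a UMI in 71.4% of the barcodes of subgroup 1 (median 980 CPM) and Cd34 in 51.4% (median 31.6 CPM). The summed levels thus do not describe each barcode. Subgroup 3 (6 WT and 14 KO, all of them deep) had little Mpo (267 CPM) and Ctsg (126 CPM) and high levels of monocyte genes. Lyz2 stood at 6216 CPM, Ly6c2 at 2267 CPM, Lgals3 (galectin-3) at 1336 CPM, F13a1 at 561 CPM and Ccr2, a chemokine receptor of classical monocytes, at 260 CPM. Kit had no UMI in this subgroup. S100a8 was at 2350 CPM in subgroup 3, with 719 CPM in the median barcode, and Prtn3 was at 1883 CPM. Cebpe was at 37.6 CPM in subgroup 3, with a UMI in 55% of its barcodes against 40% in subgroup 1. Mki67, a marker of dividing cells, was at 531 CPM there against 139 CPM in subgroup 1.

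Subgroup 5 (5 WT and 8 KO) combined both programs. Mpo was at 3457 CPM and Prtn3 at 5248 CPM, together with Irf8, a transcription factor of the monocyte and dendritic lineages, at 678 CPM, Ly6c2 at 1388 CPM and F13a1 at 472 CPM, whereas S100a8 was at 120 CPM and Lyz2 at 425 CPM. Subgroup 2 (8 WT and 13 KO) had Cd34 at 210 CPM, Sox4 at 210 CPM and Gata2, a factor of early progenitors and of mast cells and basophils, at 173 CPM, with Elane at only 225 CPM and Ly6c2 at 15.4 CPM. 2 of its WT barcodes, which also held the Prss34 UMIs, held 38 of the 56 Gata2 UMIs and 922 of the 930 Mcpt8 UMIs. Without them Gata2 was at 61.9 CPM, Cpa3 at 162 CPM and Mcpt8 at 27.5 CPM, which is below the 36.9 CPM of Mcpt8 in subgroup 1. Subgroup 4 held 16 KO and 0 WT barcodes, 14 of them shallow, and carried Mpo (2295 CPM), Ly6c2 (2063 CPM) and T cell transcripts (Trbc2 at 1241 CPM, Cd3d at 527 CPM) with Hbb-bs at 982 CPM. Of the other shallow barcodes, 10 were in subgroup 1, 6 in subgroup 2 and 1 in subgroup 5. Because each subgroup was drawn from the same counts, these levels are descriptions, and the barcodes per library were not tested.

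**Figure D3:**
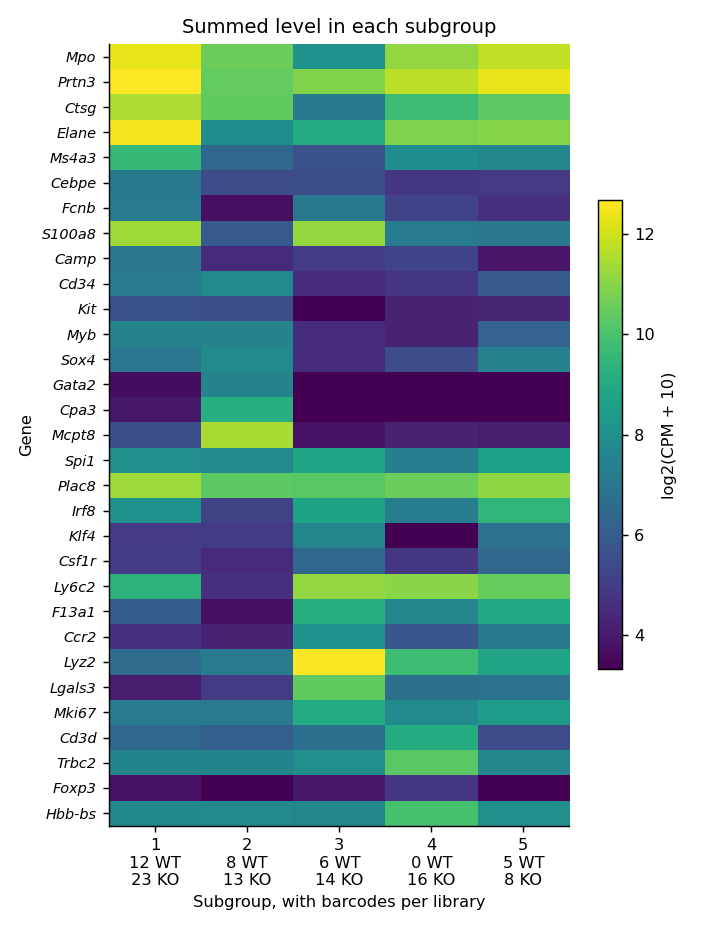
Colour gives log2(CPM + 10) of the UMIs summed over each of 5 subgroups (columns, with barcodes per library) for 31 genes (rows). Elane and Mpo are brightest in subgroup 1, Lyz2 and Ly6c2 in subgroup 3, Gata2, Cpa3 and Mcpt8 in subgroup 2 (922 of its 930 Mcpt8 UMIs are in 2 WT barcodes), and Cd3d and Trbc2 in subgroup 4, which holds 0 WT barcodes.

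A pair of WT barcodes stood apart from the rest. They had 14195 and 18993 UMIs, no Elane UMI, 56 and 93 UMIs of Ctsg, 179 and 822 UMIs of Prss34 and 206 and 716 UMIs of Mcpt8. Prss34 and Mcpt8 are protease genes of basophils and their precursors, and both barcodes had passed the rule mainly through Ctsg. No other chosen barcode had a Prss34 UMI. These 2 barcodes set the WT level of the listed mast cell, basophil and eosinophil genes, 2538 CPM against 43.4 CPM in KO. Prss34 was at 1183 CPM in WT and 0 in KO, at least 518-fold lower by a floor of 3 counts over the KO barcodes. Mcpt8 was at 1110 and 19.8 CPM, and without the pair at 20.9 and 19.8 CPM, a ratio of 0.946 (0.494 to 1.86). Eosinophil granule genes Epx and Prg2 had 0 UMIs in both libraries, which allows up to 3.55 CPM in WT and 2.28 CPM in KO. Cpa3 (carboxypeptidase A3 of mast cells) had a KO to WT ratio of 0.0997, and of 0.643 (0.357 to 1.16) without the pair.

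The 15 other genes of early granules and granulocyte-monocyte progenitors were similar between libraries. Across all genes with at least 100 UMIs in the chosen barcodes, 19 of 2886 (0.658%) had a KO to WT ratio of 2 or more and 26 (0.901%) of 0.5 or less, and the median ratio was 0.991. Of the 14 listed genes that reached 100 UMIs, none of them passed either line, and their median was 0.955. Lyz2 was at 1705 CPM in WT and 1710 CPM in KO. Plac8 was at 2091 and 1768 CPM, a ratio of 0.845 (0.794 to 0.900). Srgn, which encodes the serglycin core that holds granule proteases, was at 1013 and 811 CPM, a ratio of 0.800 (0.731 to 0.877). Cd63, a granule membrane protein gene, had a ratio of 0.647 (0.534 to 0.784), which was 1.19 (0.947 to 1.51) without the 2 Prss34 barcodes. Ctsc, the protease that activates the granule proteases, had a ratio of 1.26 (0.997 to 1.61).

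Of the 20 genes with the highest fold over T cell barcodes, the first 4 were the rule's own. Next were Ms4a3 (118-fold on the CPM + 1 scale), Anxa3 (70.2-fold), Prss57 (55.1-fold), another azurophil granule protease gene, Cd63, Serpinb1a (52.5-fold), an inhibitor of the neutrophil serine proteases, and Gstm1. Plac8 (50.2-fold), F13a1 (49.9-fold), Clec12a, Hp, Cd34 (41.0-fold), Spi1 (40.7-fold), Lmo1, Napsa and Rab44 followed, together with Mcpt8, which owed its place to the pair of WT barcodes. Since the barcodes were chosen by 4 of these genes, the folds are descriptions. Serpinb1a was at 264 CPM in the WT barcodes and 635 CPM in WT neutrophil-lineage barcodes. Cd34 stood at 78.0 CPM in the WT and 102 CPM in the KO barcodes and had 0 UMIs in both neutrophil-lineage sets.

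Stem and progenitor genes were present but uneven between libraries. Of the 15 listed genes 7 reached 100 UMIs, and none of the 7 passed the 2-fold lines (median ratio 0.972). Myb came closest, at 149 CPM in WT and 74.6 CPM in KO, a ratio of 0.501 (0.381 to 0.657), and 0.527 in deep barcodes. Kit, the stem cell factor receptor, was at 39.0 CPM in WT (33 UMIs in 18 of 31 barcodes) and 11.4 CPM in KO (15 UMIs in 10 of 74), a ratio of 0.293 (0.148 to 0.554), and 0.299 without the Prss34 pair. Cd34 went the other way, with a ratio of 1.31 (0.967 to 1.78). Gata2 had a ratio of 0.267 (0.142 to 0.480), but without the Prss34 pair 3 of its 41 WT UMIs remained and the ratio was 3.51 (1.01 to 18.7). Myc had a ratio of 0.429 (0.223 to 0.809). Hoxa9, a homeobox gene of early progenitors, had 13 and 24 UMIs, a ratio of 1.19 (0.582 to 2.54).

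The 11 myeloid transcription factor genes had a summed ratio of 0.888 (0.823 to 0.959), and of 7 with 100 UMIs none passed the lines. Spi1, which encodes the master regulator PU.1, was at 309 and 308 CPM. Irf8 was at 398 and 304 CPM, a ratio of 0.762 (0.658 to 0.884), and Klf4, a monocyte factor, at 99.3 and 60.1 CPM, a ratio of 0.606 (0.440 to 0.833). Cebpe was at 67.4 and 63.2 CPM in the chosen barcodes and at 626 and 471 CPM in neutrophil-lineage barcodes. Among the 14 monocyte genes, none of the 10 with 100 UMIs passed the lines. Ly6c2 was at 1000 and 1270 CPM (ratio 1.27, 1.17 to 1.38), Lgals3 at 309 and 392 CPM (ratio 1.27) and Ms4a6c at 317 and 258 CPM (ratio 0.814). Fn1 (fibronectin), with 18 and 60 UMIs below that minimum, had a ratio of 2.15 (1.25 to 3.86).

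Of the growth factor receptors, Csf1r, the receptor of macrophage colony-stimulating factor, was at 48.5 and 41.1 CPM, Csf2ra, a subunit of the GM-CSF receptor, at 118 and 104 CPM, and Csf3r, the receptor of granulocyte colony-stimulating factor, at 31.9 and 17.5 CPM, a ratio of 0.549 (0.300 to 0.994). The phagocyte NADPH oxidase, which makes superoxide, was represented by all 6 listed subunit genes, and none passed the 2-fold lines (summed ratio 1.04, 0.977 to 1.11). Cybb, its membrane catalytic subunit, was at 87.5 CPM in WT and 96.7 CPM in KO, against 646 and 632 CPM in neutrophil-lineage barcodes. Ncf1, a cytosolic subunit, was at 100 and 97.4 CPM.

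The secretory machinery stood high. The 12 endoplasmic reticulum chaperone and translocon genes summed to 6167 CPM in WT and 6097 CPM in KO, against 1475 and 1211 CPM in neutrophil-lineage barcodes and 2635 and 2500 CPM in T cell barcodes. None of the 12 passed the 2-fold lines between libraries, and their median ratio was 0.990. Calr (calreticulin, a chaperone that binds myeloperoxidase precursor) was at 1373 CPM in WT (1295 to 1454) and 1402 CPM in KO (1339 to 1468), and at 154 and 117 CPM in neutrophil-lineage barcodes. In the shallow KO barcodes Calr was at 1452 CPM, beside 487 CPM in KO T cell barcodes. Hsp90b1 was at 937 and 898 CPM and Hspa5 at 675 and 746 CPM. Of the heme enzymes, Alas1, which starts heme synthesis in cells other than red cells, was at 59.1 and 57.1 CPM, against 10.1 and 9.04 CPM in T cell barcodes.

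Genes of the cell cycle were expressed at similar levels in both libraries. The 12 S phase genes summed to 1752 CPM in WT and 1649 CPM in KO, against 676 and 452 CPM in neutrophil-lineage and 1920 and 1329 CPM in erythroid barcodes. The 12 genes of G2 and M summed to 2000 and 1921 CPM, against 1585 and 1363 CPM in neutrophil-lineage and 3680 and 2865 CPM in erythroid barcodes. None of the 11 genes with 100 UMIs in each list passed the lines. Mcm3, a subunit of the replicative helicase, was at 252 and 255 CPM, and Top2a at 441 and 410 CPM. Mki67 was at 351 and 227 CPM, a ratio of 0.646 (0.548 to 0.761). Xist, which is among the 12 genes with the highest ratios, was at 180 and 336 CPM, beside 218 and 564 CPM in T cell barcodes.

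**Figure D4:**
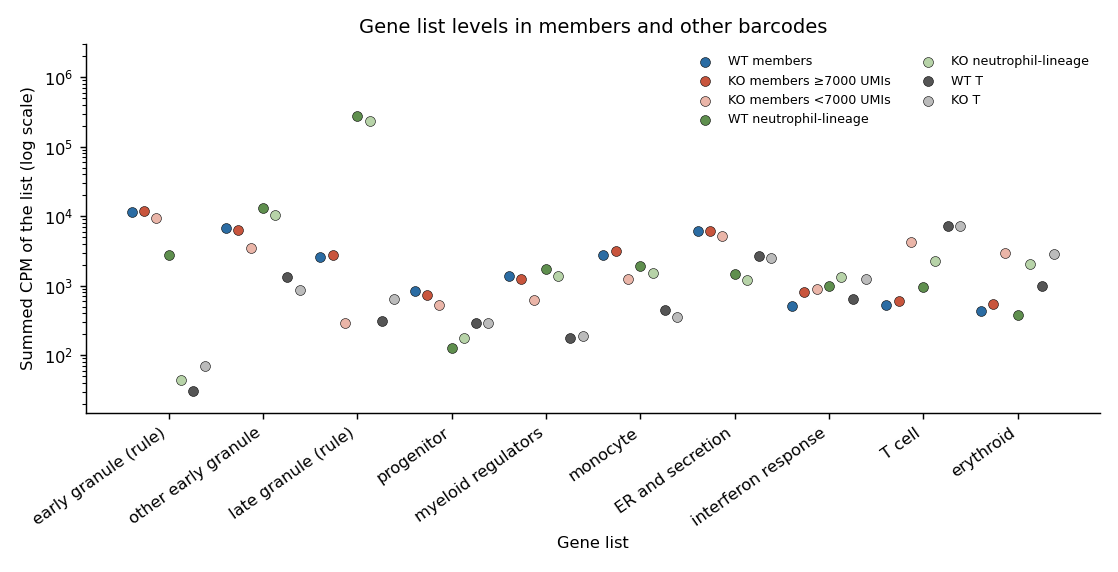
Each point gives the summed CPM (log scale) of a gene list in 1 set of barcodes of 1 library, with the KO chosen barcodes split at 7000 UMIs. Chosen barcodes are called members in the legend. WT and deep KO members stand at 507 and 812 CPM in the interferon list and at 6167 and 6165 CPM in the secretory list, whereas the shallow KO barcodes are high in T cell genes (4192 CPM) and low in late granule genes (294 CPM).

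The 20 listed interferon-stimulated genes summed to 507 CPM in WT (460 to 557) and 818 CPM in KO (770 to 869), a ratio of 1.61 (1.44 to 1.81), and of 1.60 (1.43 to 1.80) in deep barcodes. Of 3 genes with 100 UMIs, 1 passed the 2-fold line over all barcodes and 0 in deep barcodes. Ifitm3, a membrane protein gene that restricts viral entry, was at 304 and 387 CPM, a ratio of 1.28 (1.10 to 1.49), and Bst2 (tetherin) at 98.1 and 123 CPM, a ratio of 1.25 (0.953 to 1.65). Among genes with fewer than 100 UMIs, Isg15 had 4 UMIs in 2 WT barcodes and 53 UMIs in 29 KO barcodes, a ratio of 8.53 (3.14 to 32.5), Zbp1 6 and 53 UMIs (ratio 5.69, 2.45 to 16.2) and Gbp2 3 and 31 UMIs (ratio 6.65, 2.08 to 34.0). In T cell barcodes the 20 genes stood at 641 and 1246 CPM, a ratio of 1.94, so the same direction was seen in the sorted T cells of the 2 libraries. Irf1, a transcription factor that interferon induces, was among the 12 highest ratios, at 29.6 and 74.6 CPM (2.52, 1.61 to 4.09), beside 98.2 and 159 CPM in T cell barcodes.

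The 11 p53 target genes summed to 309 CPM in WT and 438 CPM in KO, a ratio of 1.42 (1.23 to 1.65), and 1 of 2 with 100 UMIs passed the 2-fold line. This was Cdkn1a. Cdkn1a, which encodes the cell cycle inhibitor p21, was at 39.0 CPM in WT (33 UMIs in 17 barcodes) and 113 CPM in KO (149 UMIs in 26 barcodes), a ratio of 2.91 (1.98 to 4.38). The deep barcodes gave 3.11 (2.12 to 4.69). However, 4 KO barcodes with 18 to 27 UMIs each held 95 of the 149 KO UMIs, and the next had 9. Without these 4, which were picked by this count, KO was at 46.3 CPM, a ratio of 1.19 (0.755 to 1.89). Among deep barcodes 56.7% in WT and 56.8% in KO had a Cdkn1a UMI, and the medians were 31.3 and 35.1 CPM. In T cell barcodes Cdkn1a was at 7.60 and 37.5 CPM, a ratio of 4.93. Phlda3 had 0 UMIs in WT and 11 in KO, which is at least 2.36-fold higher by a floor of 3 counts over the WT barcodes. Bax was at 168 and 196 CPM (ratio 1.17, 0.946 to 1.44). Of the stress lists, Atf4 of the integrated stress response had a ratio of 1.27 (1.03 to 1.58), and none of 5 such genes with 100 UMIs passed the lines. Fos, an immediate early gene, was at 261 and 104 CPM, a ratio of 0.399 (0.320 to 0.496), whereas it was at 206 and 294 CPM in T cell barcodes. Jun had a ratio of 0.754 (0.670 to 0.849) and the heat-shock gene Hspa1a of 1.32 (1.15 to 1.52).

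The other genes with the highest KO to WT ratios divided by where their UMIs came from. Hsph1, a heat-shock chaperone gene, was at 53.2 and 164 CPM, a ratio of 3.08 (2.22 to 4.34), with UMIs in 16 of 31 WT and 29 of 74 KO barcodes. However, 57 of its 215 KO UMIs (26.5%) were in 1 barcode. In T cell barcodes its ratio was 0.919 (0.863 to 0.979). Spata7 had 8 WT and 95 KO UMIs (ratio 7.65), of which 90 were in 1 KO barcode. Plec (plectin, ratio 2.18) had 32.1% of its KO UMIs in 1 barcode. Hba-a2, Hba-a1 and Hbb-bs, the haemoglobin genes, had ratios of 2.44, 2.17 and 1.87 over all barcodes and 1.81, 1.57 and 1.34 in deep ones, and in T cell barcodes 3.96, 2.79 and 3.49. Ltb, a T cell cytokine gene, went from 2.34 to 1.79 when only deep barcodes were counted. Chchd10 (ratio 2.30) and Gm42031 (ratio 2.52) also had ratios of 2.17 and 1.83 in T cell barcodes.

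**Figure D5:**
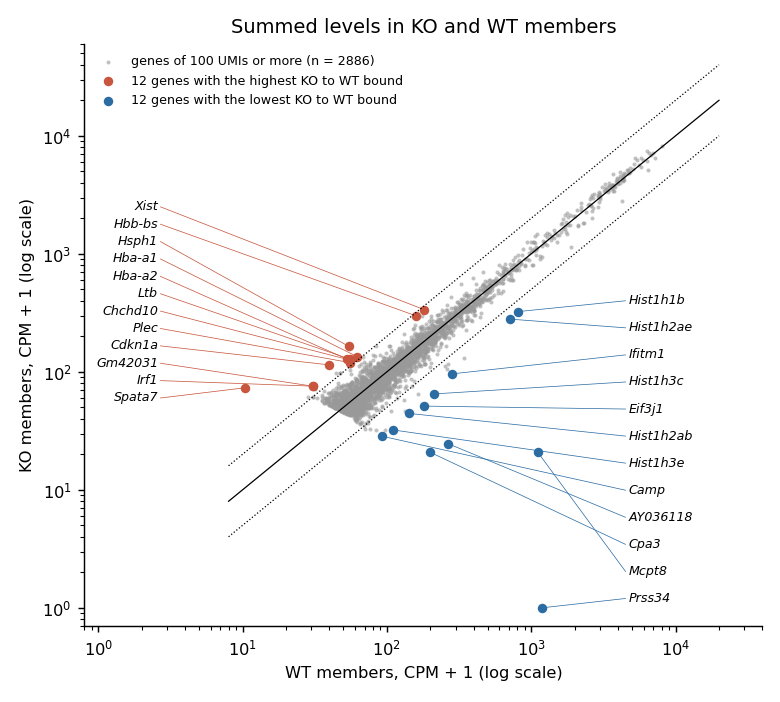
Each grey point is 1 of 2886 genes, with CPM + 1 in WT barcodes on the x axis and in KO barcodes on the y axis (both log scales); dotted lines mark 2-fold. Most genes lie between the lines (19 at or above, 26 at or below), and Prss34 and Mcpt8 lie far below because of 2 WT barcodes.

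Several of the genes with the lowest ratios were also lower in the KO T cell barcodes. AY036118, a ribosomal RNA-like gene, had a ratio of 0.0891 (0.0591 to 0.130) in the chosen barcodes and 0.134 in T cell barcodes. Eif3j1, a translation initiation factor gene with a near-identical copy to which reads could be assigned, had 0.280 and 0.399. Replication histone genes took 5 of the 12 places. Hist1h1b was at 807 and 323 CPM (ratio 0.400, 0.353 to 0.452), Hist1h2ae at 713 and 279 CPM (0.391), and Hist1h3c, Hist1h3e and Hist1h2ab had ratios of 0.304, 0.287 and 0.306. All 13 Hist1 and Hist2 genes with 100 UMIs, a group chosen after these values were seen, were below 1, and 11 were at 0.5 or less. Together these 13 genes stood at 5075 CPM in WT and 2377 CPM in KO, a ratio of 0.468 (0.447 to 0.490), beside 4032 and 2074 CPM (ratio 0.514) in T cell barcodes.

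Ifitm1 and Camp did not follow the T cells. Ifitm1 was at 283 and 95.2 CPM, a ratio of 0.337 (0.269 to 0.420), 0.472 without the Prss34 pair, and 1.57 in T cell barcodes. Camp, whose level the rule limits, had 67 of its 78 WT UMIs in 1 barcode and a ratio of 0.297.

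The T cell genes in the chosen barcodes moved with the shallow barcodes. The 10 listed T cell genes summed to 530 CPM in WT and 870 CPM in KO, a ratio of 1.64 (1.47 to 1.84), and to 524 and 601 CPM in deep barcodes, a ratio of 1.15 (1.02 to 1.29). Listed erythroid genes had a ratio of 1.68 (1.49 to 1.90) over all barcodes and of 1.27 (1.11 to 1.44) in deep ones. Tfrc, the transferrin receptor of that list, went the other way (0.519). In contrast to these, the ratios of the progenitor genes (0.844 and 0.860) and the monocyte genes (1.08 and 1.13) hardly differed between all and deep barcodes. Deep barcodes held 12 of 2767 genes (0.434%) with a ratio of 2 or more and 27 (0.976%) of 0.5 or less.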

How the data were processed

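Droplet single-cell libraries of sorted splenic CD4+YFP+ cells, 1 WT and 1 KO, were used. The deposited values are raw UMI counts; the submitters' processing notes name Cell Ranger 5.0.1 and mm10. Both matrices list 32285 features. The WT library held 14524 barcodes and 64567991 UMIs, and the KO library 18134 barcodes and 65480052 UMIs. The filters of 300 genes and 5% mitochondrial UMIs left 8053 WT barcodes (median 5061 UMIs) and 13767 KO barcodes (median 2713 UMIs). The mitochondrial limit set aside 3 WT barcodes and 1 KO barcode that met the rest of the rule.

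Counts were summed over the chosen barcodes of each library and divided by their total UMIs (CPM). Levels carry exact Poisson intervals, ratios exact conditional binomial intervals, and shares Clopper-Pearson or Newcombe intervals, all at 95% and for counting error only. With 1 library per genotype no test was run. Genes with at least 100 UMIs over both libraries were compared, and a ratio of 2 or more, or of 0.5 or less, counts as past 2-fold. T cell barcodes had at least 3 UMIs of the 6 T cell genes, erythroid barcodes at least 10% haemoglobin UMIs. Subgroups came from Leiden clustering (igraph 0.11.9, resolution 0.5) on 10 principal components of 1000 variable genes. Scrublet (scanpy 1.11.5) called 0 doublets by its own threshold in both libraries and so did not work as a caller; removing the top-scoring 5% (WT) and 8% (KO) took 0 chosen barcodes, and no barcode was removed in the values given. Intervals and calls were tested on simulated Poisson counts drawn from the pooled levels, which is the model the intervals assume. The simulation held no spread between barcodes and does not cover it. Python 3.11.15, numpy 2.4.6 and scipy 1.17.1 were used.

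The genes named are those of the listed gene groups, the 20 with the highest fold over T cell barcodes, and the 12 highest and 12 lowest KO to WT ratios by the interval bound nearest to 1. The barcodes, lists and comparisons were chosen with earlier results of these data known. Some genes of the lists are not reported here by name. Ddit3, a symbol carried by more than 1 feature, was left out of its list. Promoter sequences and gene positions are RefSeq's for GRCm38.p6, the assembly of mm10.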

Additional observations from a re-analysis of the deposited data

How the results depend on the processing

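The KO minus WT difference in the share of chosen barcodes (0.153 points) depended on the enzyme threshold and on depth. It was 0.519 with at least 10 UMIs of the enzymes (36 WT and 133 KO barcodes), 0.407 with the enzymes at 0.5% of UMIs or more, and 0.405 with at least 1000 genes. The filter of 1000 genes left 31 WT and 73 KO chosen barcodes. Their shares were 0.489% and 0.894% because fewer barcodes were kept in each library. It turned to -0.0220 with at least 40 UMIs (24 and 38 barcodes), to -0.0529 in barcodes of at least 7000 UMIs, and to -0.00398 without barcodes of 5 or more T cell gene UMIs, which left 5 WT and 8 KO barcodes. Genes at or above 2-fold (19) numbered 31 with at least 10 enzyme UMIs and 12 in barcodes of at least 7000 UMIs. They numbered 37 by the mean of single-barcode CPM. They numbered 4 without barcodes of 5 or more T cell gene UMIs, which left 189 genes to compare. With each barcode thinned to 2000 UMIs they also numbered 4, among 271 genes. Genes at 0.5-fold or less (26) numbered 60, 5 and 3 under the last 3 of these settings. With at least 50 UMIs per gene the counts were 52 and 71, with at least 200 UMIs 7 and 13, and with no minimum 1884 and 1936, where single UMIs set the ratio. Of 23 lists with 100 UMIs, 1 was past 2-fold (mast cell, basophil and eosinophil genes). This was 0 without the 2 Prss34 barcodes, 2 with a late granule limit of 10% and 3 with at least 10 enzyme UMIs. It was 4 without barcodes of 5 or more T cell gene UMIs, with the enzymes at 0.5% or by the mean of single barcodes. After thinning it was 7. The cause was not tested. The interferon list was higher in KO under all 16 alternatives run (1.31 to 2.07), the p53 list too (1.12 to 1.47), and the progenitor list was lower (0.565 to 0.920). The 7000 UMI line and the removal of the Prss34 barcodes were chosen after seeing the data. No paired analysis was possible because each genotype had 1 library. The intervals do not cover differences between mice, sorts or library preparations.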
